A study of Homo sapiens with 8 samples.

Results

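10 genes of the neuronal cytoskeleton were followed in HEK293T, an established line from human embryonic kidney into which the SV40 large T antigen was introduced. They were taken by name: NEFL, NEFM, NEFH and INA, which encode intermediate filament proteins of the axon, TUBB3, MAP2, MAPT, STMN2 and DCX, which encode a tubulin and microtubule regulators, and GAP43, a growth cone protein. These 10 are among 58592 genes to which the deposited transcripts could be joined. RNA was sequenced from 4 libraries of normal HEK293T cells (control replicates 1 to 4) and 4 libraries of HEK293T cells transfected with a tagged human KCNQ3 coding sequence by means of FuGene HD and harvested 48 hours later (overexpression replicates 1 to 4). Values are listed in the order of replicates 1 to 4. KCNQ3 encodes a subunit of a neuronal voltage-gated potassium channel. All 8 libraries come from the same cell line. The labels carry the same transfection text for every sample, and they do not say if control cells received reagent or an empty vector. Nothing in them says that the cultures were started separately, and the spread on which each p-value rests may therefore be technical, since it is that of these samples alone.

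Neurofilaments are built from a light, a medium and a heavy chain (NEFL, NEFM and NEFH) that assemble with alpha-internexin (INA), give large axons their calibre and are widely used as markers of neurons and of axon damage. Axonal and dendritic microtubules contain the beta tubulin isotype TUBB3 and are bundled by tau (MAPT) and MAP2, while doublecortin (DCX) and stathmin-2 (STMN2) act on microtubules of migrating and growing neurons. HEK293 lines are known to express a number of neuronal genes, including neurofilament genes, although they were made from kidney cultures.

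The libraries held 24020097 to 30734915 estimated counts, and mitochondrially encoded genes took 3.94% to 5.77% of them. KCNQ3 itself went from a mean of 0.0996 to 684 CPM (counts per 1000000 counts of a library, scaled by TMM), which checks the labels (log2 fold change 12.63, SE 0.25, adjusted p = 6.46e-07 in edgeR's quasi-likelihood test). Of 9 markers of the kidney rudiment and epithelium, 8 had counts in every library, and PAX8 had none in the controls and 2 each in overexpression replicates 3 and 4. Their summed level was 103 to 113 CPM in controls and 102 to 108 CPM in overexpression libraries. Of 12 general neuron markers, ELAVL4 had no count in any library, and the summed level was 253 to 264 CPM in controls and 248 to 270 CPM in overexpression libraries. Within it UCHL1 and ENO2 were highest, at means of 126 and 43.7 CPM in controls and 136 and 43.4 CPM in overexpression libraries. In control means the other neuron markers with a count ran from 0.0702 CPM (ELAVL3) to 35.6 CPM (NCAM1), with RBFOX3 at 1.46 CPM. Of 10 neuron markers tested 2 passed, both lower, where 0.192% of all genes tested were called lower: SYN1, a synaptic vesicle protein, at 1.87 and 1.01 CPM (adjusted p = 0.0224 by edgeR), and SNAP25, a synaptic fusion protein, at 0.628 and 0.227 CPM (adjusted p = 0.0442 by edgeR). Of the chromaffin markers TH, PHOX2A and SLC18A1 had no count, and of the glial markers S100B had none. The summed level in controls and overexpression libraries was 10.4 to 11.9 and 10.2 to 11.9 CPM for 9 glial genes, 1.88 to 2.59 and 1.79 to 2.44 CPM for 8 chromaffin genes, 17.3 to 20.5 and 16.7 to 21.0 CPM for 8 fibroblast genes, and 2.53 to 3.66 and 2.63 to 3.23 CPM for 8 blood genes. COL1A2, DCN and THY1 of the fibroblast list and PTPRC, CD3E and HBB of the blood list had no count. Their part in the results below was not tested.

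Several of the sequences behind these measurements are shared between annotated transcripts, and 2 such cases recur in the values. The first is the TUBB3 locus on chromosome 16, where a read-through gene, AC092143.1, joins upstream exons to the coding exons of TUBB3. The sequences below span the junction that leads into the shared part, 5′ to 3′ on the plus strand, with the exon common to both transcripts in capitals. They are coding sequence from GENCODE release 29 transcripts (GRCh38). The TUBB3-201 junction joins chr16:89923429-89923458 to chr16:89932571-89932600, and the AC092143.1-201 junction joins chr16:89920708-89920737 to the same exon.
TUBB3-201 junction: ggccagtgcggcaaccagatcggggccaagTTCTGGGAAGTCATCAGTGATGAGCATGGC
AC092143.1-201 junction: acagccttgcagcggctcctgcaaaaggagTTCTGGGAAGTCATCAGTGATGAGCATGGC
From the capitals onward the transcripts run together: 1584 of the 1769 bases of TUBB3-201 (89.5%) are also exonic in AC092143.1-201, which is 2776 bases long.

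The second case is MAPT, whose exon 10 encodes 1 of the microtubule-binding repeats of tau. Coding transcripts with the exon give tau with 4 repeats and coding transcripts without it give tau with 3 repeats. Of 18 annotated MAPT transcripts, 9 hold an exon with exactly its start and end.

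The members fell into a detected and a barely detected set in normal HEK293T cells. On the length-scaled TPM scale (transcripts per 1000000, summed over a gene's transcripts), NEFM, NEFL, INA, MAPT and TUBB3 were present at 10.4 to 77.5 TPM in control means, GAP43 at 1.05 TPM, and STMN2, MAP2, NEFH and DCX at 0.15 TPM or less. The filaments that share the adult axon were unequal: NEFM and NEFL were abundant and the heavy chain NEFH was close to absent.

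**Figure D1:**
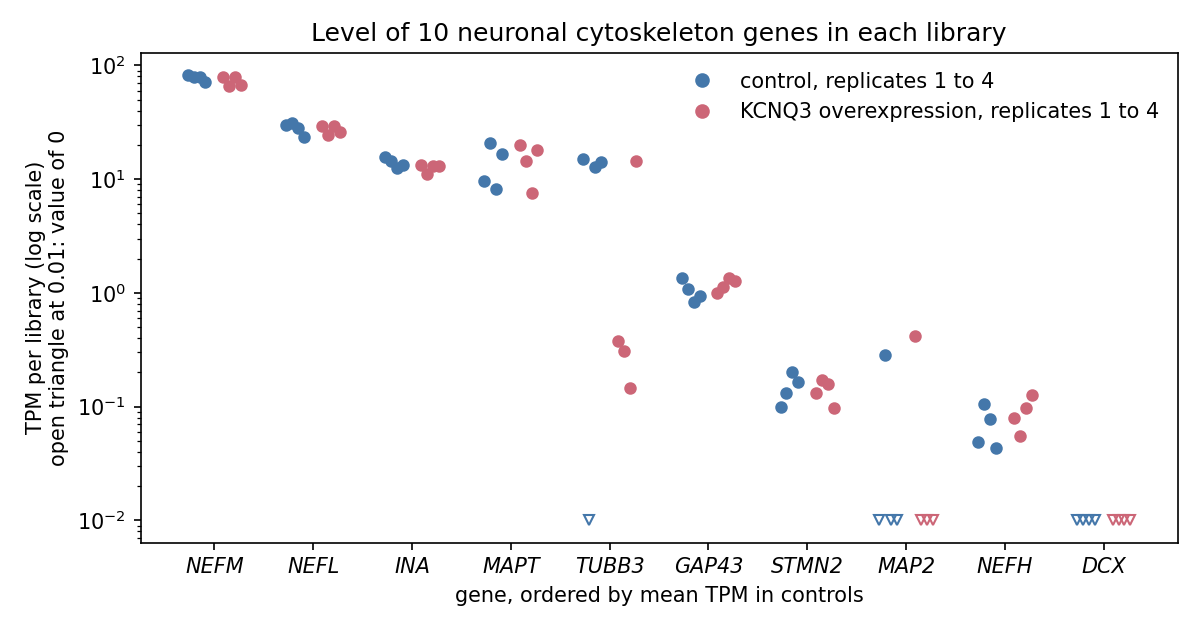
TPM of the 10 genes in each library on a log axis, with control libraries in blue and KCNQ3 overexpression libraries in red, 4 points per group and gene, and open triangles at the bottom for values of 0. NEFM stands at 65.5 to 82.0 TPM in all 8 libraries, TUBB3 stands at 12.8 to 14.9 TPM in 4 libraries and at 0.374 TPM or less in the other 4, and DCX is at 0 throughout.

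NEFM, the medium chain, was the highest of the 10. As in all bulk samples, fewer cells with a transcript and less of it per cell cannot be told apart. It is at chromosome 8, 24913012 to 24919098 on the plus strand (ENSG00000104722). Its TPM was 82.0, 78.6, 78.5 and 71.0 in the controls, against 79.3, 65.5, 79.2 and 67.3 in the overexpression libraries. The groups overlap, and overexpression replicates 2 and 4 are the lowest of the 8. Its control mean exceeded that of 94.1% of the genes with a count. In CPM the mean was 155 ± 3.5 in controls and 151 ± 12 in overexpression libraries (SD, n = 4 each). NEFM did not pass edgeR's quasi-likelihood test (log2 fold change −0.04, SE 0.06, 95% interval −0.17 to 0.08, adjusted p = 0.728).

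NEFL, the light chain that forms the core of the neurofilament, lies 31856 bases from NEFM on the opposite strand (chromosome 8, 24950955 to 24957110, ENSG00000277586). It had 1970, 1799, 1516 and 1545 counts in the controls, against 1897, 1585, 2033 and 1632 in the overexpression libraries. Scaled by library size this is 63.9, 68.1, 63.4 and 61.4 CPM against 71.2, 65.6, 75.8 and 67.7 CPM, so that 2 overexpression libraries lie above every control and 2 lie within their range. NEFL had the smallest p among the members. Its log2 fold change was 0.13 (SE 0.05, 95% interval 0.01 to 0.24), and the adjusted p = 0.222 in edgeR's quasi-likelihood test did not pass.

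The counts of NEFL were divided between its transcripts. NEFL-202 is an annotated retained-intron transcript of 1497 bases, of which 1250 are also exonic in the main transcript NEFL-201 and 247 are intronic there. It was given 138, 134, 100 and 8 counts in the controls, against 5, 2, 4 and 2 in the overexpression libraries. Control replicate 4 is close to the overexpression libraries but above each of them, and the other 3 controls stand far above. The scaled groups of NEFL-202 thus did not overlap, beside 5.68% of the transcripts tested, of which it was not one. Too few libraries held 10 counts for the filter, so NEFL-202 was not tested. Since NEFL-202 is short, its counts weigh more in TPM: NEFL-202 held 5.09, 5.59, 4.54 and 0.30 TPM in controls and 0.17 TPM or less in overexpression libraries. On the summed TPM scale NEFL was 29.9, 31.04, 28.2 and 23.5 in controls against 29.1, 24.6, 29.2 and 25.8 in overexpression libraries, and the log2 difference turned to −0.05 on log2(TPM + 0.1), with an adjusted p of 0.868 by limma. NEFL-201 alone had 1832, 1665, 1416 and 1537 counts in the controls, against 1892, 1583, 2029 and 1630 in the overexpression libraries. Its scaled groups did not overlap, as was the case for 5.68% of the 47129 transcripts tested, and its log2 fold change of 0.18 (SE 0.06) had an adjusted p = 0.872 in edgeR's transcript test.

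The ratio of NEFL to NEFM counts within a library, looked at after the values were seen, was 0.405, 0.437, 0.403 and 0.409 in the controls, against 0.457, 0.469, 0.459 and 0.479 in the overexpression libraries. All 4 overexpression libraries lie above all 4 controls, although neither gene alone had groups without overlap in CPM. Of single genes tested, 11.6% had groups without overlap, and no such share was worked out for ratios. On the TPM scale the groups overlap: NEFL made up 21.7% to 25.0% of the summed TPM of NEFL, NEFM, NEFH and INA in controls and 23.9% to 24.3% in overexpression libraries. No test of either ratio was made.

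INA, alpha-internexin, the filament protein that appears early in developing neurons, has 1 annotated transcript and so no division between isoforms (ENSG00000148798, chromosome 10, 103277163 to 103290351, plus strand). It had 927, 755, 603 and 710 counts in the controls, against 694, 573, 722 and 660 in the overexpression libraries, and the groups overlap. Its level was 14.1 ± 1.3 TPM in controls and 12.6 ± 1.0 TPM in overexpression libraries (SD, n = 4 each). INA did not pass edgeR's quasi-likelihood test (log2 fold change −0.11, SE 0.07, 95% interval −0.25 to 0.04, adjusted p = 0.398).

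NEFH, the heavy chain that is added as axons mature, had 4, 7, 5 and 3 counts in the controls, against 5, 4, 7 and 8 in the overexpression libraries (ENSG00000100285, chromosome 22, 29480230 to 29491390). That is 0.0569% ± 0.022 of the summed TPM of the 4 axonal filament genes in controls, where NEFM held 64.7% ± 1.2, NEFL 23.4% ± 1.3 and INA 11.8% ± 0.85 (SD, n = 4). NEFH was too low to be tested. The ratio of its summed counts, scaled by library size, was 1.32 with an exact 95% interval of 0.693 to 2.55 that covers counting error only. The proportions in the overexpression libraries were 64.6% ± 0.88 for NEFM, 24.1% ± 0.19 for NEFL, 11.2% ± 0.73 for INA and 0.0798% ± 0.028 for NEFH.

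Set against the other cytoplasmic filament genes listed, the axonal ones were a minor part. Vimentin (VIM), the filament of mesenchymal and cultured cells, held 78.5% ± 0.56 of the summed TPM of 13 such genes in controls, NEFM 9.26% ± 0.44, KRT18 4.46% ± 0.16 and NEFL 3.35% ± 0.25 (SD, n = 4). NEFM thus stood above the epithelial keratins KRT8 and KRT18 per length, while the peripheral nerve filament PRPH was at 0.161% ± 0.053 and the astrocyte filament GFAP at 0.0692% ± 0.024.

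TUBB3, the neuronal beta tubulin isotype (ENSG00000258947, chromosome 16, 89921392 to 89938761, plus strand), had 465, 0, 344 and 388 counts in the controls, against 5, 4, 2 and 378 in the overexpression libraries. Control replicate 2 lies with overexpression replicates 1 to 3, and overexpression replicate 4 lies with the other controls. AC092143.1 (ENSG00000198211), the read-through gene whose junction is shown above, had the opposite pattern: 0, 456, 0 and 0 counts in the controls, against 412, 392, 479 and 0 in the overexpression libraries. The sum of both genes was 465, 456, 344 and 388 in the controls, against 417, 396, 481 and 378 in the overexpression libraries.

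In each library 1 transcript of the locus held 97.9% to 100% of its counts. It was TUBB3-201 in control replicates 1 and 4 and overexpression replicate 4, TUBB3-209 in control replicate 3, and AC092143.1-201 in control replicate 2 and overexpression replicates 1 to 3. TUBB3-209, a transcript annotated as a target of nonsense-mediated decay, shares 1602 of its 1855 bases with TUBB3-201. For TUBB3 alone the log2 fold change was −1.49 (SE 1.81, 95% interval −5.89 to 2.91), with an adjusted p = 0.718 in edgeR's quasi-likelihood test. When TUBB3 was counted together with AC092143.1, which was added after its values were seen, the level was 15.5 ± 1.2 CPM in controls and 16.4 ± 1.1 CPM in overexpression libraries (SD, n = 4 each). The log2 fold change was then 0.08 (SE 0.07, 95% interval −0.08 to 0.24, adjusted p = 0.594 in the same test). The sign of the estimate turned with this alternative.

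**Figure D2:**
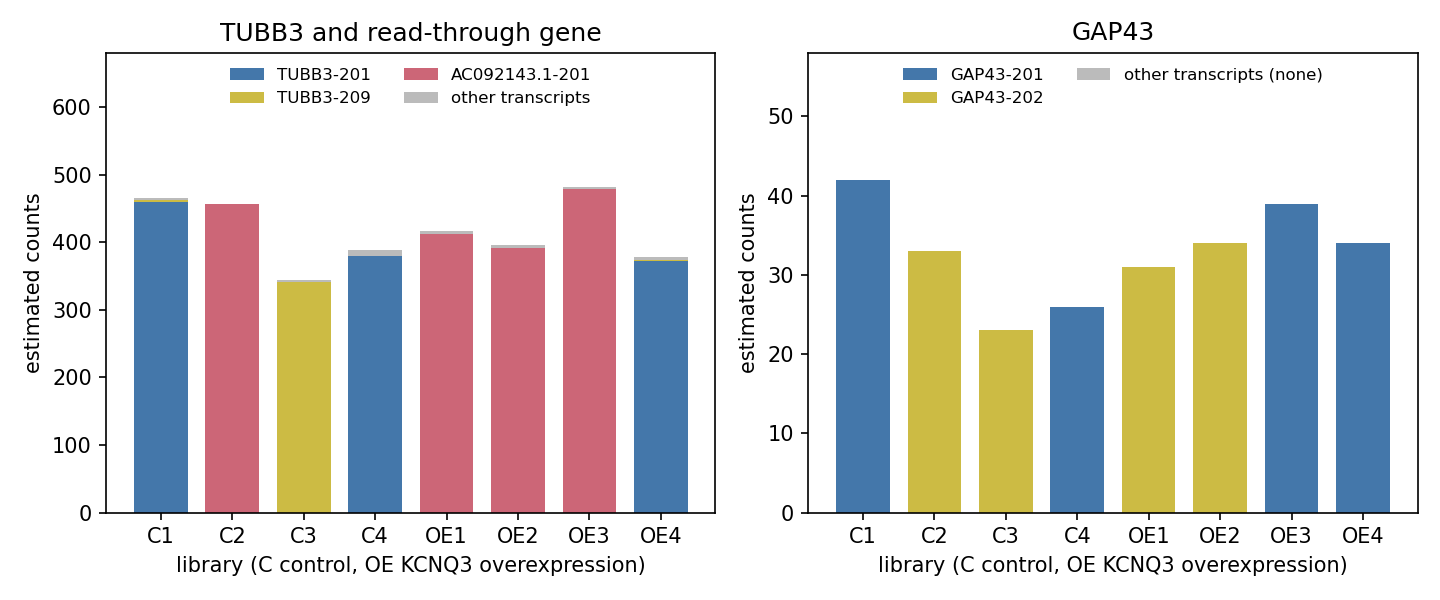
Estimated counts per library for the transcripts of TUBB3 and the read-through gene AC092143.1 (left) and of GAP43 (right), as stacked bars; C marks control and OE KCNQ3 overexpression libraries. The height of the TUBB3 bars runs from 344 to 481 while the colour changes from library to library, and each GAP43 bar has 1 colour.

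GAP43, a membrane protein of growth cones that is phosphorylated by protein kinase C, showed the same all-or-none division at a lower level (ENSG00000172020, chromosome 3, 115623324 to 115721490, plus strand). It had 42, 33, 23 and 26 counts in the controls, against 31, 34, 39 and 34 in the overexpression libraries, and the groups overlap. GAP43-201 took all of them in control replicates 1 and 4 as well as overexpression replicates 3 and 4, and GAP43-202 took all in the other 4 libraries. The transcripts share 1505 bases. The gene was at 1.15 ± 0.19 CPM in controls and 1.36 ± 0.13 CPM in overexpression libraries (SD, n = 4 each). Its log2 fold change of 0.23 (SE 0.15, 95% interval −0.10 to 0.56) did not pass edgeR's quasi-likelihood test (adjusted p = 0.517).

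MAPT, which encodes tau, the axonal microtubule-associated protein (ENSG00000186868, chromosome 17, 45894382 to 46028334, plus strand), was as evenly expressed as INA in counts. It had 1002, 817, 753 and 707 counts in the controls, against 853, 682, 818 and 693 in the overexpression libraries. In CPM this was 30.8 ± 1.9 against 29.9 ± 1.7 (SD, n = 4 each), and the groups overlap. MAPT did not pass edgeR's quasi-likelihood test (log2 fold change −0.04, SE 0.06, 95% interval −0.17 to 0.09, adjusted p = 0.752).

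On the TPM scale the same libraries ran from 7.55 to 20.7, a ratio of 2.74 between the highest and the lowest, whereas the gene's share of the counts varied by 1.19 times. MAPT was at 9.57, 20.7, 8.24 and 16.7 TPM in the controls, against 20.2, 14.5, 7.55 and 18.1 TPM in the overexpression libraries. The high values are those of libraries in which MAPT-202 held more than 100 counts. MAPT-202 is annotated with only 1107 bases, all of them exonic in MAPT-204 too. It held 5, 277, 0 and 216 counts in the controls, against 258, 138, 0 and 229 in the overexpression libraries. MAPT-209, of 5345 bases, held 534, 0, 215 and 0 in the controls, against 0, 403, 210 and 0 in the overexpression libraries. MAPT-209 was at 0 in 4 of the 5 libraries in which MAPT-202 had more than 100 counts, the exception being overexpression replicate 2.

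**Figure D3:**
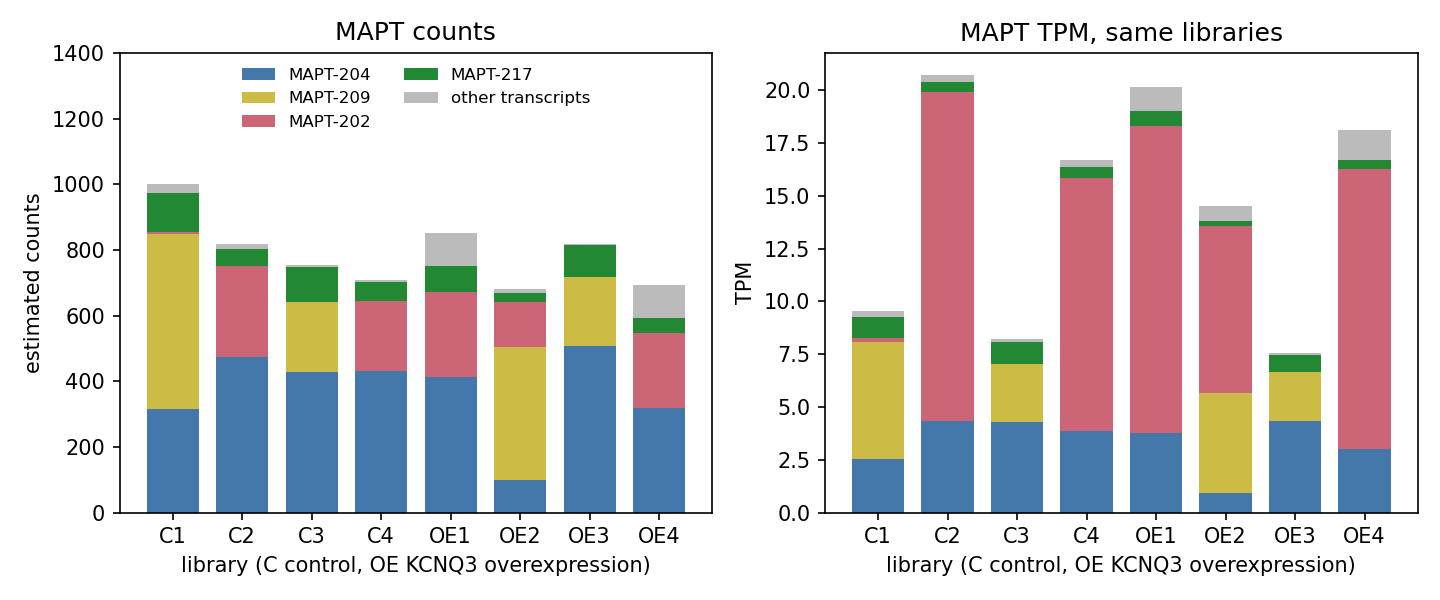
Transcripts of MAPT in each library as stacked bars, in estimated counts (left) and in TPM (right); C marks control and OE KCNQ3 overexpression libraries. Total counts run from 682 to 1002, while the short transcript MAPT-202 makes the TPM bars of 5 libraries taller than those of control replicates 1 and 3 and overexpression replicate 3.

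MAPT-204, with 15 exons and 6816 bases, was the transcript with the most counts over the 8 libraries. It carries exons 2 and 3, which encode inserts in the amino-terminal part of tau, and exons 4A and 6, which are known from the larger tau of peripheral nerve. It had 316, 474, 427 and 430 counts in the controls, against 414, 100, 507 and 318 in the overexpression libraries. Overexpression replicate 2 is lowest, and the rest overlap. Transcripts with exon 4A held 51.8% ± 14 of the MAPT counts in controls and 43.1% ± 20 in overexpression libraries (SD, n = 4 each). Transcripts with exon 10 held 87.0%, 59.0%, 85.3% and 60.8% in the controls, against 60.1%, 73.8%, 87.7% and 59.2% in the overexpression libraries, and the groups cover the same range. These shares are sums over whole transcripts whose counts were estimated, not counts of reads over the exon. A transcript held an exon only where an annotated exon had the same start and end. MAPT-216, a retained-intron transcript that spans exon 4A with 1 to 5 counts per library, was thus not counted for that exon. The counts without exon 10 were not all of tau with 3 repeats. They include MAPT-217, an annotated retained-intron transcript. It held 120, 52, 107 and 55 counts in the controls, against 79, 29, 98 and 46 in the overexpression libraries. The 4 MAPT transcripts tested all had an adjusted p of 1.00 in edgeR's transcript test, and their standard errors on the log2 scale were 0.44 to 2.58.

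The remaining members were at or near the limit of detection. STMN2, which destabilises microtubules in growing axons (ENSG00000104435, chromosome 8, 79610814 to 79666175), had 4, 5, 7 and 6 counts in the controls, against 5, 6, 6 and 4 in the overexpression libraries. The ratio of its scaled sums was 0.998 (exact 95% interval 0.522 to 1.9, counting error only). MAP2, the dendritic microtubule-associated protein (ENSG00000078018, chromosome 2, 209424058 to 209734118), had counts in 2 libraries, 11 in control replicate 2 and 15 in overexpression replicate 1, and 0 in the other 6. The ratio of its scaled sums was 1.43 (exact 95% interval 0.612 to 3.43). DCX, doublecortin (ENSG00000077279, chromosome X, 111293779 to 111412429), had 0 counts for all of its 11 transcripts in all libraries. With 3 counts as the limit that 0 allows over a group, its level was below 0.0282 CPM in controls and 0.0295 CPM in overexpression libraries.

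In order of control TPM the members ran NEFM, NEFL, INA, MAPT, TUBB3, GAP43, STMN2, MAP2, NEFH and DCX. NEFM and NEFL were separated by more than their spread, as were NEFL and INA. INA at 14.1 ± 1.3, MAPT at 13.8 ± 5.9 and TUBB3 at 10.4 ± 7.0 TPM were not (SD, n = 4). With its read-through partner, TUBB3 was at a mean of 13 TPM in controls. GAP43 lay above STMN2 in every library. STMN2, MAP2 and NEFH overlapped.

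The RefSeq (GRCh38.p14) promoter windows used here covered 5 of the 10, namely INA, TUBB3, GAP43, MAP2 and DCX. Windows of 300 bases ran from 250 before to 50 after an annotated start. The 250 upstream bases are printed for INA, for TUBB3 and for DCX, which had no count, 5′ to 3′ along the gene with each CG dinucleotide in capitals. The TUBB3 bases include the annotated start of TUBB3-201, while AC092143.1-201 begins upstream of them. The DCX bases include the annotated starts of DCX-205, DCX-207 and DCX-208. The printed bases come from chr10:103276888-103277137 (INA, plus strand), chr16:89923092-89923341 (TUBB3, plus strand) and chrX:111412193-111412442 (DCX, minus strand).
INA promoter: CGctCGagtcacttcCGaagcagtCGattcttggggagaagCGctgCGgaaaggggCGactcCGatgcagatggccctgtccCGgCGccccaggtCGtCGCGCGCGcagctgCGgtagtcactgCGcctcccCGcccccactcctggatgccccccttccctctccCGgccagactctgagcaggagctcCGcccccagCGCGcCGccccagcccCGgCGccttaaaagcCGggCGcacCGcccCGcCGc
TUBB3 promoter: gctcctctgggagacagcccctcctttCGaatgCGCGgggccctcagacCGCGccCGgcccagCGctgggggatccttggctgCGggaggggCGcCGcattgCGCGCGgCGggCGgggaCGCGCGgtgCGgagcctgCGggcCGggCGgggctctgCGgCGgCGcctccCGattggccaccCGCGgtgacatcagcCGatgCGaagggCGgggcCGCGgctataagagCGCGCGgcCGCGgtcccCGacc
DCX promoter: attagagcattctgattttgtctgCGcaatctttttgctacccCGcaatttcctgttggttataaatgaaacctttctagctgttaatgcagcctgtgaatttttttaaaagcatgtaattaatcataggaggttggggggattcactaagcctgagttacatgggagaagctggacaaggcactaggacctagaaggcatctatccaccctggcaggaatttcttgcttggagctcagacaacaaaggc
The INA window held 35 CG dinucleotides, a number reached by 14.1% of 35116 promoter windows, and this TUBB3 window held 47, a number reached by 2.41%. The median over all windows was 14. The DCX windows held 2 to 4, the MAP2 windows 5 to 10 and the GAP43 window 7. A further TUBB3 window, at an upstream start, held 9. The motif GGGCGG, searched on both strands, occurred 4 times in the INA window and 5 times in this TUBB3 window. It occurred in none of the GAP43, MAP2 and DCX windows, nor in the other TUBB3 window. It was present in 45.0% of all windows. With 5 genes this is a description of the sequences.

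After KCNQ3 overexpression no member passed the gene test. Of the 10, 9 had a count and 6 were kept by the filter on low counts. Of these 6, 0 passed edgeR's quasi-likelihood test, where 0.301% of 19280 genes passed (0.109% higher and 0.192% lower). At an unadjusted p under 0.05 there was 1, NEFL (unadjusted p = 0.0356), against 19.4% of all genes. DESeq2 gave an adjusted p for 4 of the 6 and called 0, where it called 4.86% of the 14974 genes with one. Of the 6 members, 2 lay above 0 and 4 below, with a median log2 fold change of −0.04 beside 0.01 over all genes. No member had groups without overlap in CPM, beside 11.6% of all genes. For NEFM, NEFL, INA and MAPT the 95% intervals kept the fold change between 0.840 and 1.18, which bounds the change but does not show that there was none. For GAP43 the interval ran from 0.934 to 1.47. Of member transcripts 9 were tested and 0 passed, where 0.0127% of transcripts passed, and at an unadjusted p under 0.05 there was 1, NEFL-201, against 5.58% of all transcripts.

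**Figure D4:**
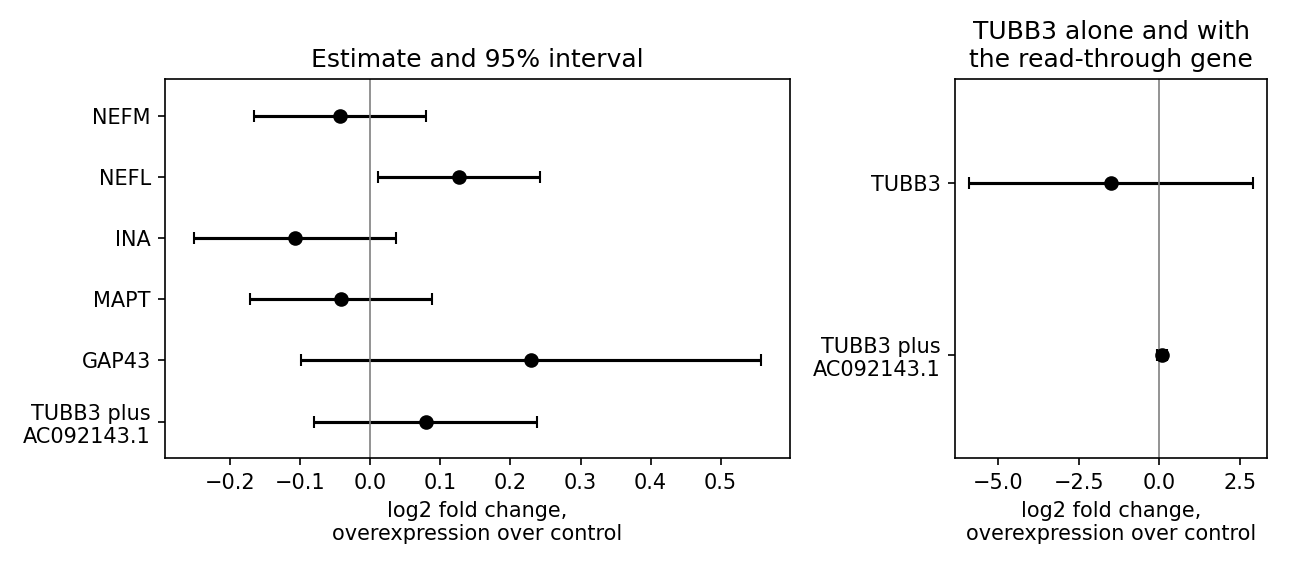
Log2 fold change of overexpression over control with its 95% interval for the members tested, from the fit over all genes, with TUBB3 counted together with AC092143.1 in both panels and TUBB3 alone on the wider axis at right. The intervals of NEFM, INA, MAPT and GAP43 include 0, that of NEFL runs from 0.01 to 0.24 before adjustment, and that of TUBB3 alone runs from −5.89 to 2.91.

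Other cytoskeletal genes were taken from 7 lists by role. No gene of these lists passed edgeR's quasi-likelihood test over all genes, where 0.301% passed. The counts below at an unadjusted p under 0.05 stand against 19.4% of all genes, and those of genes whose groups did not overlap in CPM against 11.6%. The list of other intermediate filament genes also holds genes of proteins that link filaments. In it 12 of 14 were tested, 11 had a log2 fold change below 0 and the median was −0.14, beside 0.01 over all genes. Of the 12, 5 had an unadjusted p under 0.05 and the groups of 1 did not overlap. VIM was at 759 ± 63 CPM in controls and 684 ± 39 in overexpression libraries (log2 −0.15, SE 0.07), and LMNB1, lamin B1 of the nuclear lamina, at 199 ± 14 and 182 ± 9.8 CPM (log2 −0.13, SE 0.06).

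Of 15 other tubulins tested, 8 lay above and 7 below 0 in counts, with a median of 0.02. On log2(TPM + 0.1), 4 lay above and 11 below, with a median of −0.03 beside −0.036 over all genes. An unadjusted p under 0.05 was found for 2, and groups without overlap for 0. TUBA1B, an abundant alpha tubulin, was at 1253 ± 18 and 1269 ± 57 CPM, and TUBB, the general beta tubulin, at 1381 ± 58 and 1427 ± 86 CPM (SD, n = 4 each). TUBB held 61.8% ± 0.60 of the beta tubulin TPM in controls, and TUBB3 and AC092143.1 together never exceeded 1.06% of it in any library.

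Among microtubule-associated proteins 25 of 27 were tested, 18 of them below 0, with a median of −0.11 and 8 at an unadjusted p under 0.05. STMN1, the general stathmin, was at 426 ± 27 and 455 ± 35 CPM. MAPRE1, which binds growing microtubule ends, was at 182 ± 4.7 and 189 ± 6.1 CPM. Groups did not overlap in 6 of the 25. Of the kinases and other enzymes acting on tau and filaments 13 of 14 were tested, 6 above and 7 below 0, with a median of −0.04, 2 at an unadjusted p under 0.05 and 1 without overlap. GSK3A, a tau kinase, was at 84.9 ± 4.0 and 86.7 ± 0.97 CPM.

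In the growth cone and membrane skeleton list all 19 were tested, 13 below 0, with a median of −0.06 (−0.11 on log2(TPM + 0.1)), 7 at an unadjusted p under 0.05 and 3 without overlap. MARCKSL1, an actin-binding substrate of protein kinase C, was at 222 ± 19 and 261 ± 14 CPM (log2 0.24, SE 0.06, adjusted p = 0.0991 by edgeR), and DBN1, drebrin, at 120 ± 6.5 and 126 ± 15 CPM. Of the axonal transport motors all 19 were tested, 15 below 0, with a median of −0.07 (−0.15 on log2(TPM + 0.1)), 8 at an unadjusted p under 0.05 and 3 without overlap. DCTN1, a dynactin subunit, was at 247 ± 16 and 240 ± 15 CPM and DYNC1I2, a dynein chain, at 82.2 ± 1.5 and 79.0 ± 3.2 CPM. Of the RNA-binding regulators 13 of 14 were tested, 6 above and 7 below 0 in counts, with a median of −0.0036, and 3 above and 10 below on log2(TPM + 0.1), with a median of −0.087. Of these 13, 4 had an unadjusted p under 0.05 and the groups of 1 did not overlap. The median over all genes was −0.036 on log2(TPM + 0.1). HNRNPA1 was at 673 ± 8.5 and 712 ± 22 CPM and SRSF2 at 273 ± 22 and 319 ± 39 CPM. DESeq2 called 9 of the 107 list genes to which it gave an adjusted p (8.41%), beside 4.86% of all genes with one. Of the 9, 7 were lower (LMNA, MAP1B, BASP1, EPB41L3, KIF1A, KIF2A and MBNL2, log2 −0.15 to −0.34) and 2 were higher (CDK5 and MARCKSL1, both 0.23). These were named after their values were seen.

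**Figure D5:**
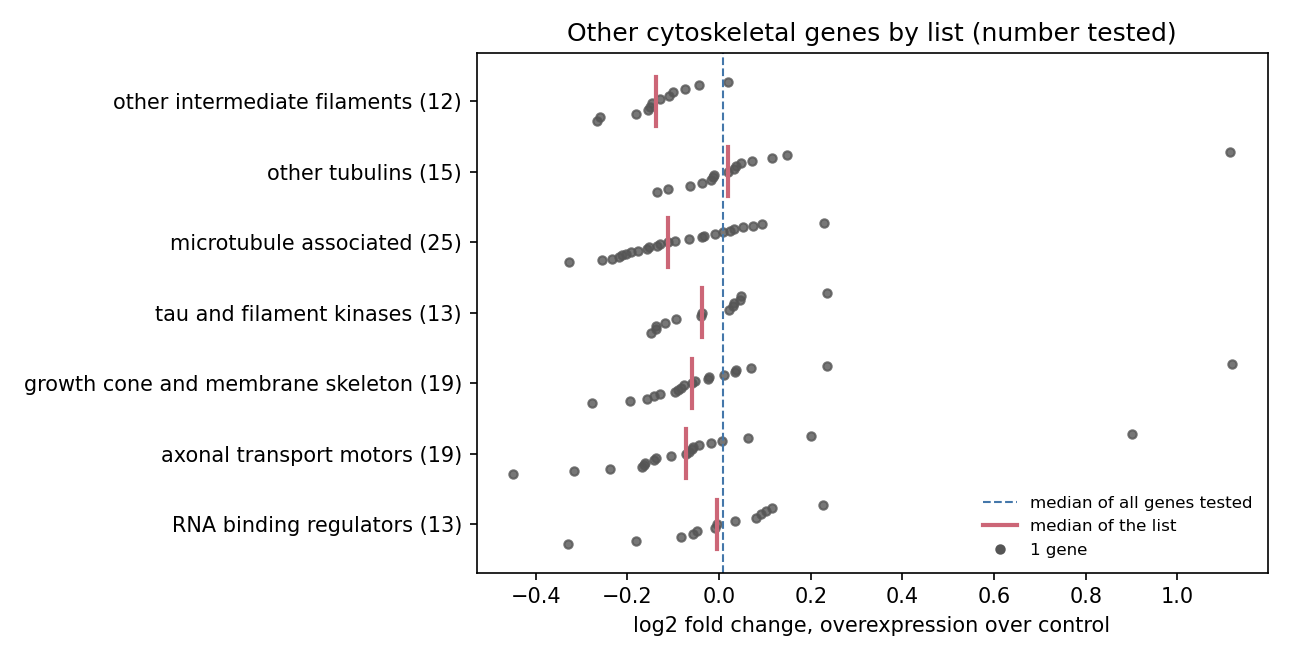
Log2 fold change of overexpression over control for each tested gene of the 7 lists, 1 point per gene, with the median of each list in red and that of all genes tested as a dashed line. The medians run from −0.14 for other intermediate filaments, a list that includes filament linkers, to 0.02 for other tubulins, and no gene drawn passed the test.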

How the data were processed

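StringTie 2.1.0, HISAT2 2.1.0, SAMtools 1.9, cutadapt 2.8 and FastQC 0.11.5 are listed per the submitters' processing notes, with build GRCh38.p13. No label or header used here names the annotation release or says if counting used strand. Per transcript, the authors deposited estimated counts, written as whole numbers, and a table of TPM per transcript (sum 1000000 per library), for 227751 transcript identifiers. Of these 205804 were joined by identifier to genes of GENCODE release 29 (GRCh38) and 21947 were not. Matched transcripts held 98.7% to 98.9% of the counts of each library. A member's reads in unmatched transcripts are not included.

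Counts were summed per gene. The gene and transcript tests were edgeR's quasi-likelihood test (edgeR 4.0.16, R 4.3.3, robust) with TMM scaling, filterByExpr (minimum count 10, minimum total 15) and Benjamini-Hochberg adjustment over all features, at 0.05. SE and 95% intervals are those implied by the test. DESeq2 1.42.0 and limma 3.58.1 were alternatives. No replicate was a copy of another (chi-square over degrees of freedom 9.72 to 18.6 for pairs within groups). Overlapping genes cannot be separated: AF106564.1, antisense to NEFM, was at 2.41 and 2.56 CPM in the 2 groups. The depth limits low genes, and intervals on count ratios cover counting error only.

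The members and lists were chosen with earlier results of these data known. The genes named are the 10 members, KCNQ3, and from each list the genes past the threshold or, where none passed, the 2 with the highest mean TPM. For members with a mean of at least 10 counts the 2 transcripts with most counts are named. AC092143.1, NEFL-202 and the other transcripts of TUBB3 and MAPT described were named after their values were seen. A few items that these rules would name, among them 1 list gene, are not reported here.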

Additional observations from a re-analysis of the deposited data

Results flagged for a closer look

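In 68 groups of 4 libraries (members, their tested transcripts, the TUBB3 locus and the list genes named by the rule), 7 had a library far from the other 3. Chance flags about 1 in 20 groups where values are independent and close to normal, which groups with several values of 0 are not. In addition, 4 of the 7 are the same division of counts at the TUBB3 locus in the same libraries. TUBB3 had 0 CPM in control replicate 2, where the other controls had 14.4 to 15.4 CPM, and 15.7 CPM in overexpression replicate 4, where the others had 0.0746 to 0.188 CPM. The transcript AC092143.1-201 had 17.8 CPM in control replicate 2 and 0 in the other controls, and 0 CPM in overexpression replicate 4 where the others had 15.6 to 17.96 CPM. The sum of both genes showed no such library in either group. MAP2 had 0.416 CPM in control replicate 2 and 0.563 CPM in overexpression replicate 1 and 0 CPM in all others. GAP43 had 1.16 CPM in overexpression replicate 1, below the 1.41 to 1.45 CPM of the other 3.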

How the results depend on the processing

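No member gene passed under DESeq2, limma on TPM, other scaling, no filter, each library left out or the replicate block. No member transcript passed under the alternatives run for transcripts, which were RLE size factors, no filter, each library left out and the replicate block. In limma on log2(TPM + 0.1) and log2(TPM + 1), NEFL turned to −0.046 and −0.045 and MAPT to 0.14 and 0.13. TUBB3 turned to 0.079 when counted together with AC092143.1, and without overexpression replicate 4 it was −6.26 (range with each library left out −6.26 to −1.08). Genes past the threshold numbered 58, 21 higher and 37 lower, and 35 without a scaling factor (9 and 26), 727 by DESeq2 (309 and 418), 6 on either TPM scale (5 and 1) and 8 to 378 with each library left out. The list genes past the threshold numbered 0, 9 by DESeq2 and 0 to 2 with each library left out: KIF1A and LMNA (lower) without control replicate 4, MBNL2 (lower) and SRSF2 (higher) without overexpression replicate 1. By CPM in place of TPM 6 of 10 members kept their position in the order of levels. With the replicate block 86 genes and 0 members passed. Libraries of the same number did not deviate together (correlations −0.05 to 0.07). No pairing by number was seen, though so few pairs cannot show that there was none. NEFL-202 was tested only without a filter, or with control replicate 4 or an overexpression library left out, with adjusted p from 0.0576 (without control replicate 4) to 0.886 by edgeR. DESeq2 gave no adjusted p for TUBB3 and GAP43.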
